A study of Mus musculus with 12 samples.

Results

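The enzymes that make and break down prostaglandins, thromboxane and leukotrienes were followed in mouse macrophages with or without TGFβ and with or without a TLR2 ligand. The members were the 10 genes Ptgs1, Ptgs2, Ptges, Hpgds, Tbxas1, Hpgd, Alox5, Alox5ap, Ltc4s and Lta4h, found by symbol among the 40847 rows of the count table. All 10 were present and passed the filter on low counts, so none was left out of the tests. The cells are FLAMs (fetal liver alveolar-like macrophages), which the labels list as a cell line and describe as kept in medium with mouse GM-CSF at 30 ng/ml; strain, age and sex are not given in the labels used here. Each of 4 groups held 3 mRNA libraries: untreated cells, cells in recombinant human TGFβ1 at 20 ng/ml (TGFβ), cells given Pam3CSK4 at 25 ng/ml for 18 h (Pam3), and cells given both (Pam3+TGFβ). GM-CSF was thus present in every group, the untreated one included. The labels do not say how long TGFβ had been present, or whether the libraries of a group came from separate cultures or animals, so p-values measure the spread between these samples, which may be technical.

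Eicosanoids are short-lived lipid mediators made from arachidonic acid, which phospholipases release from membranes. In the cyclooxygenase branch, Ptgs1 (COX-1, usually present at a steady level) and Ptgs2 (COX-2, typically induced by inflammatory signals) form the precursor PGH2, which Ptges, Hpgds and Tbxas1 turn into PGE2, PGD2 and thromboxane. Hpgd starts the inactivation of prostaglandins. In the lipoxygenase branch, Alox5 acts with its helper protein Alox5ap to form LTA4, which Lta4h converts to LTB4 and Ltc4s conjugates to glutathione to form LTC4, the first of the cysteinyl leukotrienes. Macrophages, alveolar macrophages among them, are known producers of both families.

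The sequences before the starts of Ptgs1 and Alox5 are shown because their windows alone, among the matched members, overlap no exon of a coding gene; these genes open the cyclooxygenase and lipoxygenase branches. Both come from the RefSeq promoter table, which was built on GRCm38.p6 and matched 9 of the 10 members; each stretch was found once in GRCm39, at chr2:36120188-36120437 on the plus strand for Ptgs1 and at chr6:116438140-116438389 on the minus strand for Alox5. The capitals mark GAGGAA, the core of a site for PU.1, a transcription factor of myeloid cells.
Ptgs1 promoter: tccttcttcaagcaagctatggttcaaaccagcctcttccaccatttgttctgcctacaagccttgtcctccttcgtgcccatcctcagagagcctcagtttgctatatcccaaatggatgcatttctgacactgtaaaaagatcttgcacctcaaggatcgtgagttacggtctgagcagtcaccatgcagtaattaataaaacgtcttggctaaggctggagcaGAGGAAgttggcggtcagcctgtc
Alox5 promoter: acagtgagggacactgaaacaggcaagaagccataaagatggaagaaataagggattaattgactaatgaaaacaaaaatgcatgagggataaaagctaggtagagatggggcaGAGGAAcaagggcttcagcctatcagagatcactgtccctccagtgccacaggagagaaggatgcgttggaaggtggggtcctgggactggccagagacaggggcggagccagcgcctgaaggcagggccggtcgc
Counted back from the RefSeq start, whose first base upstream is -1, the GAGGAA lay at -24 to -19 in Ptgs1 and at -136 to -131 in Alox5. On either strand, GAGGAA was found in the 250 bases before 8 of the 9 matched members, all but Ltc4s, and before 23.3% of the 32851 promoters in the table. CAGACA, a SMAD binding element, was found before Lta4h and Tbxas1 and before 17.1% of all promoters. TGANTCA, the AP-1 site, was found before Tbxas1 and 6.75% of all promoters, and TATAAA, the TATA box, before Tbxas1 and 12.4%. CACGTG, an E-box, TGACGT, the core of a cyclic AMP response element, and the NF-kB site (searched by name) were found in none of these windows of the members, and in 6.02%, 6.47% and 7.25% of all promoters. The windows of 7 of the 9 members overlap exons of coding genes in GENCODE M39, those of Ptgs2 and Hpgds over all 250 bases, so these counts include transcribed sequence. These matches are letters in a window and show no binding.

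For Ptgs2, the member with the widest fitted change, a stretch of 30 bases from base 3 after the RefSeq start is shown, at chr1:149975784-149975813 on the plus strand of GRCm39. The capitals mark 10 bases in which TGACGT, read on the minus strand at bases 13 to 18, overlaps CACGTG at bases 17 to 22. This window was searched past the start after the data were seen.
Ptgs2 start: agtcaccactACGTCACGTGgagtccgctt
Over windows of 300 bases that include the bases after the start, TGACGT was present in 7.51% and CACGTG in 7.15% of all promoters.

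In GRCm39 with the GENCODE M39 annotation, the protein-coding members lie at chr2:36120438-36142287 (Ptgs1), chr1:149975194-149983978 (Ptgs2), chr2:30779483-30820196 (Ptges), chr6:65094001-65121983 (Hpgds), chr6:38852203-39061523 (Tbxas1), chr8:56747543-56774082 (Hpgd), chr6:116387032-116438139 (Alox5), chr5:149196003-149227762 (Alox5ap), chr11:50127288-50129443 (Ltc4s) and chr10:93289210-93320749 (Lta4h). Reads were counted over whole gene models, and the strand setting of the count is not given in the sources used here, so antisense reads cannot be told apart from those of the member. As a share of the member's exons, the widest such overlap was that of Gm26542 with 268 exonic bases (25.8%) of Ltc4s, followed by Gm67658 with 449 bases (10.9%) of Alox5. Ptgs2os overlaps 476 bases (9.3%) of Ptgs2 and held 0 counts in every library.

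Library totals ran from 34036650 to 44374115 counts. In 3 groups a single library stood apart from its 2 partners (untreated replicate 3, TGFβ replicate 2 and Pam3 replicate 1), with a chi-square per degree of freedom of 133 to 220 against 9.99 to 28 for the other pairs. All 10 macrophage markers examined had counts in every group, with a summed level of 32995 to 37761 CPM in untreated, 17361 to 18283 in TGFβ, 36962 to 38243 in Pam3 and 26516 to 27223 in Pam3+TGFβ libraries. Lyz2 made up most of that sum (29824 CPM in untreated and 15248 in TGFβ cells on average), which was lower in both TGFβ groups, as were Ptgs1, Hpgds and Alox5ap below. In untreated and TGFβ cells the means of Marco (2147 and 123 CPM), Adgre1 (303 and 145), Itgax (335 and 168), Cd68 (858 and 549) and Csf1r (983 and 820) were lower with TGFβ too. Those of Siglecf (32.1 and 300), Pparg (117 and 225) and Fcgr1 (81.1 and 91.3) were higher, and Mertk was at 223 and 222. In Pam3 and Pam3+TGFβ cells, Lyz2 (31013 and 23251 CPM), Marco (3302 and 568) and Adgre1 (477 and 271) were lower in mean with TGFβ. So were Itgax (376 and 272) and Cd68 (779 and 590). Siglecf (26 and 154), Pparg (89.1 and 172), Fcgr1 (88.1 and 171) and Mertk (193 and 228) were higher. Csf1r was at 1235 and 1241 CPM. The part of these markers in the results of Ptgs1, Hpgds and Alox5ap was not tested. Of 9 mast cell markers, Fcer1a, Tpsb2, Tpsab1, Cma1 and Mcpt4 were at 0 in all libraries and the list summed to at most 1.87 CPM; basophil and eosinophil markers summed to at most 0.133 CPM, with Epx at 0. Fibroblast markers summed to at most 1.28 CPM, with Col1a2 at 0, and endothelial markers to 2.05 to 4 CPM over all libraries. Of the latter, Cdh5 was lower in mean with TGFβ (0.888 and 0.0514 CPM without Pam3, 0.74 and 0.124 with it). Kdr was lower too (0.865 and 0.082, 0.944 and 0.526), and Pecam1 was higher (0.895 and 2.46, 1.03 and 2.77). Tie1 was at 0 in untreated and TGFβ libraries. Their part in the lower Ptgis and Slco2a1 with TGFβ, described below, was not tested. The list of epithelial and hepatocyte markers rested on Cdh1, at 171 CPM in untreated and 394 CPM in TGFβ cells on average, and had Krt18 at 0.

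Levels below are CPM (the count rate per library after TMM scaling), given for replicates 1, 2 and 3 and as mean ± SD. A gene was called at an adjusted p under 0.05 in edgeR's quasi-likelihood test, with Benjamini-Hochberg adjustment over 14749 genes; fold changes are log2 values with their standard error (SE). The 5 comparisons were the Pam3 response without and with TGFβ, the TGFβ effect without and with Pam3, and their interaction. A positive interaction means a more positive Pam3 response in cells with TGFβ than in cells without it. Each group enters more than 1 comparison, so the comparisons share samples. In bulk libraries, fewer cells of a type and less RNA per cell cannot be told apart.

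Pam3 raised the inducible end of PGE2 synthesis and lowered its breakdown enzyme, while most other members fell by small amounts. Without TGFβ, Pam3 changed 8 of the 10 members, where 18.3% of all tested genes were called. Of these, Ptgs2 and Ptges rose, and Ptgs1, Tbxas1, Hpgd, Alox5, Ltc4s and Lta4h fell, where 9.62% of all genes were called higher and 8.66% lower. With TGFβ, Pam3 changed 9 members against 38.5% of all genes, the same 8 in the same directions and Hpgds, which was lower, where 20.4% of all genes were called higher and 18.1% lower. The median log2 change over the members was -0.21 without and -0.45 with TGFβ, beside 0.00 and -0.02 over all tested genes. Without the 3 libraries that stood apart, the same contrasts called 8 and 9 members.

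TGFβ by itself lowered Ptgs1, Ptgs2 and Ptges and raised Hpgd. It changed 8 members, where 51% of all genes were called, with Hpgd, Ltc4s and Tbxas1 higher and Ptgs1, Ptgs2, Ptges, Hpgds and Alox5ap lower, beside 22.9% of all genes called higher and 28.1% lower. In Pam3-treated cells TGFβ changed 5 members, where 45.3% of all genes were called, with Ltc4s higher and Ptgs1, Hpgds, Alox5 and Alox5ap lower, beside 21.5% of all genes called higher and 23.8% lower. The interaction was called for 6 members, where 15.9% of all genes were called, positive for Ptgs2 and Ptges and negative for Ptgs1, Tbxas1, Alox5 and Ltc4s, beside 10.3% and 5.67% of all genes. The member medians were -0.11, -0.10 and -0.17 in these contrasts, and those over all tested genes -0.01, -0.00 and 0.00. Without the 3 libraries that stood apart, 8, 5 and 5 members were called, and the interaction of Tbxas1 was the call that was lost (-0.24, adjusted p 0.057 in edgeR).

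**Figure D1:**
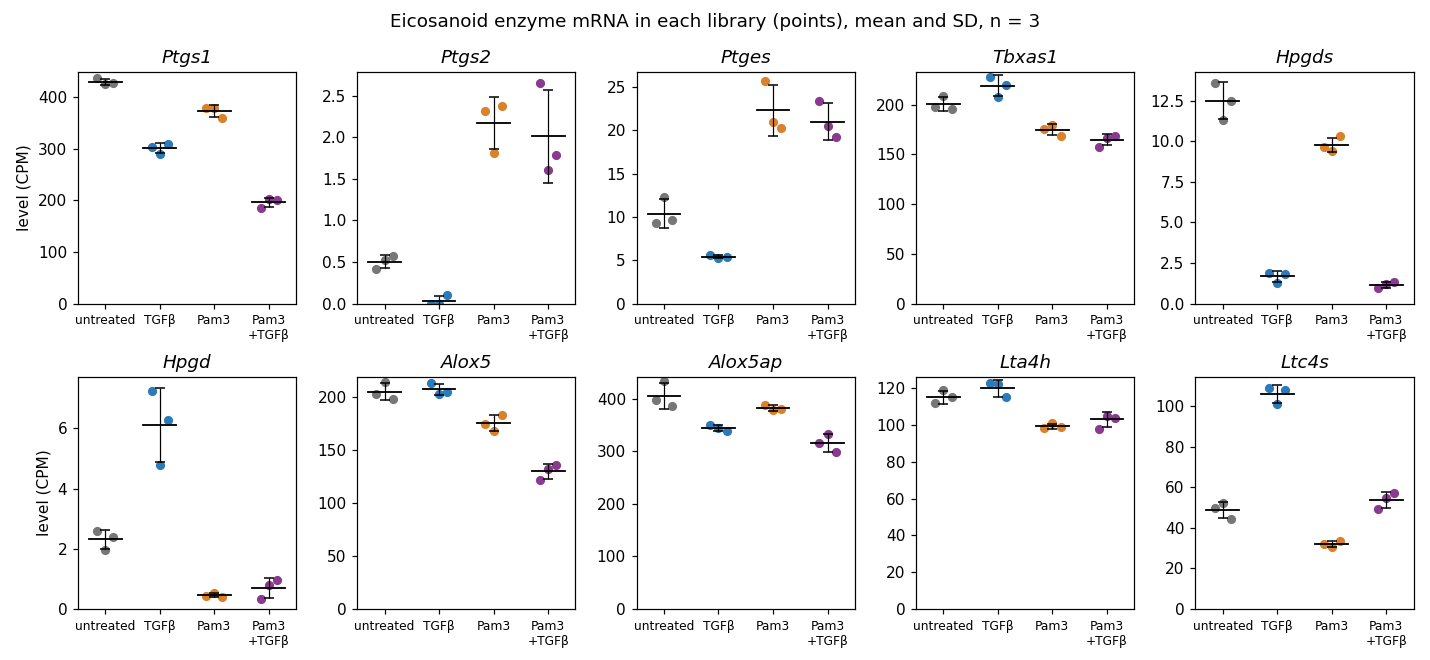
Level of each member in CPM (y axis, from 0, a separate scale per gene) in the 4 groups (x axis); points are libraries, and the bar and whiskers are mean and SD, n = 3. Ptgs2 and Ptges are high in both Pam3 groups, Hpgd is highest in TGFβ libraries, and Hpgds is low in both TGFβ groups.

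Ptgs1, the cyclooxygenase of steady synthesis, was lowest when both agents were given. Its levels were 436, 425 and 427 CPM in untreated libraries (429 ± 5.53, SD, n = 3), 304, 290 and 310 in TGFβ (301 ± 10.1), 378, 379 and 359 in Pam3 (372 ± 11.7), and 185, 202 and 200 in Pam3+TGFβ (196 ± 9.08). No library of any group overlapped another group. Pam3 lowered it by a small amount without TGFβ (-0.21, SE 0.0448, adjusted p 0.00145 in edgeR) and by more with it (-0.62, SE 0.0451, adjusted p 1.98e-11). TGFβ lowered it in both settings, by 1.43-fold without Pam3 (-0.51, SE 0.0449, adjusted p 4.28e-10) and by 1.9-fold with it (-0.93, SE 0.0453, adjusted p 5.41e-15). The interaction was -0.41 (SE 0.0635, adjusted p 2.8e-05 in edgeR), so the fall under Pam3 was steeper in cells with TGFβ.

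Ptgs2, the inducible cyclooxygenase, was scarce in every group at this 18 h time point. The untreated libraries held 16, 22 and 20 counts (0.421, 0.529 and 0.57 CPM, mean 0.507 ± 0.0772), and the TGFβ libraries 0, 0 and 4 counts (0, 0 and 0.105 CPM, mean 0.0349 ± 0.0605). The Pam3 libraries held 89, 68 and 75 counts (2.31, 1.81 and 2.38 CPM, mean 2.17 ± 0.316), and the Pam3+TGFβ libraries 91, 60 and 79 (2.65, 1.61 and 1.78 CPM, mean 2.01 ± 0.557). Both Pam3 groups lay above all other libraries and overlapped each other, and the TGFβ libraries were at or close to the floor of 3 counts, which corresponds to 0.0741 to 0.083 CPM there.

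Without TGFβ, Pam3 raised Ptgs2 4.26-fold (log2 2.09, SE 0.41, adjusted p 0.000532 in edgeR). With TGFβ the response started from 4 counts over the group and reached 230 counts, a ratio of count rates of 56.9 with a 95% counting interval of 21.9 to 211. TGFβ alone lowered the rate from 58 to 4 counts, a ratio of 14.5 (5.38 to 55.1). Intervals of this kind cover counting error only, since reads without molecular identifiers are not independent molecules. The fitted log2 changes of these contrasts were 5.72 (SE 0.592, adjusted p 1.48e-08) and -3.74 (SE 0.654, adjusted p 3.12e-05 in edgeR), and the interaction was 3.63 (SE 0.772, adjusted p 0.00132). TGFβ replicate 3 holds all 4 counts of its group. Without it the fitted values were 9.24, -7.26 and 7.15, and all were still called. The TGFβ group then held 0 counts, so these values are not read as sizes of the change. In Pam3-treated cells TGFβ made no called difference to Ptgs2 (-0.11, 95% interval -0.88 to 0.66, adjusted p 0.841).

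Ptges, the microsomal synthase that works downstream of Ptgs2 to form PGE2, followed the same order of groups at a higher level. It was at 9.31, 12.3 and 9.67 CPM in untreated libraries (10.4 ± 1.62), 5.62, 5.31 and 5.4 in TGFβ (5.44 ± 0.159), 25.7, 21 and 20.2 in Pam3 (22.3 ± 2.96), and 23.4, 20.5 and 19.2 in Pam3+TGFβ (21 ± 2.12). The Pam3 groups overlapped each other and were above all untreated libraries, which were in turn above all TGFβ libraries. Pam3 raised Ptges 2.14-fold without TGFβ (1.10, SE 0.111, adjusted p 5.8e-08 in edgeR) and 3.86-fold with it (1.95, SE 0.118, adjusted p 7.13e-13). TGFβ lowered it 1.92-fold in the absence of Pam3 (-0.94, SE 0.122, adjusted p 4.33e-07), and in its presence the difference was not called (-0.09, 95% interval -0.31 to 0.13, adjusted p 0.55). The interaction was 0.85 (SE 0.162, adjusted p 0.000411 in edgeR). The response to Pam3 was thus wider in cells with TGFβ, from a lower level without Pam3 to a similar level with it.

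Hpgd, the dehydrogenase that inactivates PGE2 and other prostaglandins, moved in the opposite direction to Ptgs2 and Ptges under Pam3 and under TGFβ without Pam3. Its levels were 2.58, 1.95 and 2.4 CPM in untreated libraries (2.31 ± 0.323), 7.25, 4.79 and 6.29 in TGFβ (6.11 ± 1.24), 0.442, 0.531 and 0.413 in Pam3 (0.462 ± 0.0614), and 0.32, 0.803 and 0.949 in Pam3+TGFβ (0.691 ± 0.329). The last 2 groups rest on few reads, 17, 20 and 13 counts in Pam3 and 11, 30 and 42 in Pam3+TGFβ, and they overlap; both lay below every untreated library, and the TGFβ libraries above. TGFβ raised Hpgd 2.65-fold (1.40, SE 0.251, adjusted p 4.04e-05 in edgeR) and Pam3 lowered it 4.94-fold in cells without TGFβ (-2.30, SE 0.308, adjusted p 3.76e-06) and 8.65-fold in cells with it. The interaction was not called (-0.81, 95% interval -1.69 to 0.07, adjusted p 0.239), so the difference between the falls was not shown. The TGFβ effect in Pam3-treated cells was not called either (0.60, 95% interval -0.11 to 1.30, adjusted p 0.164), but it was 0.92 with an adjusted p of 0.0204 in edgeR without Pam3+TGFβ replicate 1, the library with 11 counts.

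Hpgds, the haematopoietic synthase of PGD2, was low wherever TGFβ was present. It was at 13.6, 11.3 and 12.5 CPM in untreated libraries (12.5 ± 1.13) and 9.62, 9.42 and 10.3 in Pam3 (9.77 ± 0.438), against 1.91, 1.26 and 1.86 in TGFβ (1.68 ± 0.362) and 0.989, 1.2 and 1.36 in Pam3+TGFβ (1.18 ± 0.184). Every library with TGFβ was below every library without it. TGFβ lowered Hpgds 7.46-fold without Pam3 (-2.90, SE 0.155, adjusted p 2.59e-14 in edgeR) and 8.16-fold with it (-3.03, SE 0.164, adjusted p 4.03e-14). The Pam3 response was close to the threshold on both sides, with -0.35 (adjusted p 0.0626) without TGFβ and -0.48 (adjusted p 0.0475) with it. Leaving out single libraries ended the latter call in 8 of 12 cases: TGFβ replicates 1 (adjusted p 0.156 in edgeR) and 3 (0.147), Pam3+TGFβ replicates 1 (0.156) and 2 (0.077), any Pam3 replicate (0.0559 to 0.0593) and untreated replicate 3 (0.06). The former difference was called without untreated replicate 2 (adjusted p 0.0451) and without TGFβ replicate 2 (0.0463), with only the 6 libraries compared (0.0328) and with upper-quartile scaling (0.0498). The latter was not called with only the 6 libraries compared (adjusted p 0.207), with no filter (0.0559) or where each library had to hold 10 counts or more (0.0505). The interaction was -0.13 (95% interval -0.60 to 0.34, adjusted p 0.787).

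Hpgds is also a gene of mast cells and megakaryocytes, whose markers were examined beside it. Of the 9 mast cell markers, the 5 at 0 are named above. Cpa3 summed to 71 counts over the untreated, 4 over the TGFβ, 42 over the Pam3 and 6 over the Pam3+TGFβ libraries, low in the same groups as Hpgds, and Hdc to 25, 3, 84 and 197; their part was not tested. The 7 megakaryocyte and platelet markers summed to 8.02 to 9.67 CPM in untreated, 1.3 to 1.86 in TGFβ, 13.9 to 15.2 in Pam3 and 1.38 to 2.01 in Pam3+TGFβ libraries, with Ppbp (6.03 CPM in untreated cells on average) as the main part; Gp9 was at 0 in untreated cells. Treml1 did not share the low level with TGFβ (1.13 and 1 CPM without Pam3, 0.533 and 0.514 with it), and Gp1bb was higher in mean (0.0241 and 0.121, 0.0354 and 0.0977). The sum was low in the same groups as Hpgds, and Ptgs1, also a platelet gene, was lower with TGFβ as well; its part in these results was not tested.

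Tbxas1, thromboxane synthase, changed little. It was at 198, 209 and 196 CPM in untreated libraries (201 ± 7.19), 228, 208 and 220 in TGFβ (219 ± 10.4), 176, 180 and 169 in Pam3 (175 ± 5.66), and 158, 167 and 169 in Pam3+TGFβ (165 ± 5.55). The groups with Pam3 lay below those without it and met near 169 CPM, and the untreated and TGFβ groups overlapped. Pam3 lowered Tbxas1 by 1.15-fold without TGFβ (-0.20, SE 0.0465, adjusted p 0.00266 in edgeR) and by 1.33-fold with it (-0.41, SE 0.0465, adjusted p 7.4e-08). TGFβ alone raised it by 1.09-fold (0.12, SE 0.0464, adjusted p 0.0332), a call that was lost without untreated replicate 3 (adjusted p 0.105 in edgeR) and without TGFβ replicate 1 (adjusted p 0.0731). The interaction of -0.21 (SE 0.0657, adjusted p 0.0303) was lost in 4 of 12 fits that each left out a library: untreated replicate 3 (adjusted p 0.0748), TGFβ replicate 1 (0.0525), Pam3 replicate 1 (0.0765) and Pam3 replicate 2 (0.108).

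**Figure D2:**
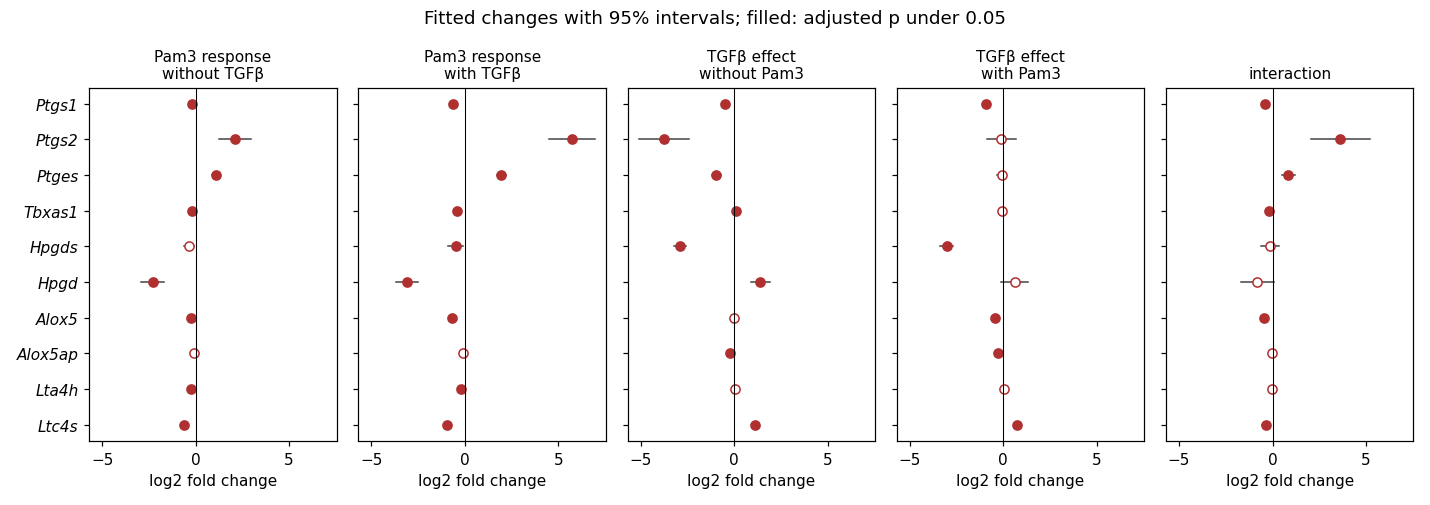
Fitted log2 fold change (x axis) of each member (y axis) in the 5 contrasts, with 95% intervals; filled points have an adjusted p under 0.05. Ptgs2 and Hpgd have the widest Pam3 responses, in opposite directions, and Hpgds has the lowest value among members under TGFβ in Pam3-treated cells (-3.03).

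In the lipoxygenase branch, TGFβ without Pam3 raised Ltc4s and lowered Alox5ap, while its effects on Alox5 and Lta4h were not called. Alox5, which makes LTA4, was at 203, 214 and 198 CPM in untreated libraries (205 ± 8.39), 213, 203 and 205 in TGFβ (207 ± 4.96), 174, 168 and 183 in Pam3 (175 ± 7.45), and 122, 132 and 136 in Pam3+TGFβ (130 ± 7.03). The untreated and TGFβ groups overlapped, Pam3 was below both, and Pam3+TGFβ was below all other libraries. TGFβ made no called difference in resting cells (0.01, 95% interval -0.09 to 0.11, adjusted p 0.838) but lowered Alox5 in Pam3-treated cells (-0.43, SE 0.0486, adjusted p 5.46e-08 in edgeR). Pam3 lowered it by 1.17-fold without TGFβ (-0.23, SE 0.0484, adjusted p 0.00109) and by 1.59-fold with it (-0.67, SE 0.0487, adjusted p 1.89e-11), and this difference was called (interaction -0.44, SE 0.0685, adjusted p 3.31e-05).

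Alox5ap, the membrane protein that presents arachidonic acid to Alox5, changed least under Pam3. It was at 398, 434 and 385 CPM in untreated libraries (405 ± 25.3), 349, 344 and 338 in TGFβ (344 ± 5.07), 388, 379 and 380 in Pam3 (382 ± 5.05), and 316, 333 and 299 in Pam3+TGFβ (316 ± 17). All libraries with TGFβ were below all libraries without it. TGFβ lowered Alox5ap by 1.18-fold without Pam3 (-0.24, SE 0.0492, adjusted p 0.000227 in edgeR) and by 1.21-fold with it (-0.27, SE 0.0493, adjusted p 5.61e-05). The Pam3 responses were not called (-0.09, adjusted p 0.261, and -0.12, adjusted p 0.0585). The second was called in 4 of the 12 fits without a library, where adjusted p ran from 0.0123 to 0.164 over all 12. It was also called in DESeq2 (adjusted p 0.0322), and in edgeR with upper-quartile scaling (-0.18, adjusted p 0.00452) or DESeq2-type size factors (adjusted p 0.0446). In edgeR it was called, too, with at least 10 counts in every library (adjusted p 0.0472) and with only the 6 libraries compared (adjusted p 0.0354). The 4 fits were those without untreated replicate 1 or 2, TGFβ replicate 3, or Pam3+TGFβ replicate 2. The interaction was -0.03 (95% interval -0.18 to 0.11, adjusted p 0.823).

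Ltc4s, the synthase of the cysteinyl leukotriene branch, was the lipoxygenase-branch member that moved most. It was at 49.8, 52.2 and 44.3 CPM in untreated libraries (48.8 ± 4.07), 109, 101 and 108 in TGFβ (106 ± 4.27), 32, 30.8 and 33.7 in Pam3 (32.2 ± 1.42), and 49.5, 54.5 and 57.2 in Pam3+TGFβ (53.7 ± 3.89). TGFβ libraries were the highest and Pam3 libraries the lowest, and the Pam3+TGFβ libraries overlapped the untreated ones. TGFβ raised Ltc4s 2.17-fold without Pam3 (1.11, SE 0.0673, adjusted p 3.05e-13 in edgeR) and 1.67-fold with it (0.74, SE 0.0687, adjusted p 1.45e-09). Pam3 lowered it 1.52-fold without TGFβ (-0.60, SE 0.0687, adjusted p 3.43e-07) and 1.97-fold with it (-0.98, SE 0.067, adjusted p 6.41e-12), with an interaction of -0.37 (SE 0.0956, adjusted p 0.00706).

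Lta4h, the hydrolase that forms LTB4, fell slightly under Pam3, and its TGFβ effects were not called. It was at 112, 119 and 115 CPM in untreated libraries (115 ± 3.66), 123, 122 and 115 in TGFβ (120 ± 4.61), 98.2, 101 and 98.7 in Pam3 (99.2 ± 1.3), and 98, 105 and 104 in Pam3+TGFβ (103 ± 3.94). The Pam3 groups overlapped each other and lay below all libraries without Pam3, which overlapped each other too. Pam3 lowered Lta4h by 1.16-fold without TGFβ (-0.22, SE 0.0497, adjusted p 0.00253 in edgeR) and by 1.17-fold with it (-0.23, SE 0.0496, adjusted p 0.000557). The TGFβ effects were small (0.06, 95% interval -0.04 to 0.16, adjusted p 0.327, and 0.05, 95% interval -0.05 to 0.15, adjusted p 0.466), and the interaction was not called (-0.01, adjusted p 0.944).

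Neutrophils also carry the Alox5 pathway. The 8 neutrophil markers summed to 13.9 to 16 CPM in untreated, 4.58 to 6.12 in TGFβ, 16.8 to 17.4 in Pam3 and 5.96 to 7.9 in Pam3+TGFβ libraries, with S100a8 the largest at 13.8, 3.07, 15.4 and 3.98 CPM on average and Mpo at 0. The sum was lower in both TGFβ groups through S100a8, as was Alox5ap, while the mean of S100a9 was higher with TGFβ (0.253 and 0.993 CPM without Pam3, 0.5 and 1.16 CPM with it). So were the means of Ngp (0.346 and 0.623, 0.326 and 0.595) and Ltf (0.361 and 0.587, 0.472 and 0.725). Camp was higher with TGFβ without Pam3 (0.00802 and 0.174) and lower with it (0.409 and 0.363). Ly6g and Elane did not pass the count filter. The part of these markers in the Alox5ap result was not tested.

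Synthesis was set against breakdown within each library as the mean log2(CPM + 0.1) of Ptgs1, Ptgs2 and Ptges minus that of Hpgd, relative to the untreated mean. This balance was -2.94, -2.40 and -2.40 in TGFβ libraries (-2.58 ± 0.31), 3.18, 2.75 and 3.13 in Pam3 (3.02 ± 0.24), and 3.22, 1.87 and 1.67 in Pam3+TGFβ (2.25 ± 0.85), with an SD of 0.3 in untreated libraries. All libraries with Pam3 were above and all TGFβ libraries below the untreated range of -0.28 to 0.32, and the Pam3 and Pam3+TGFβ groups overlapped. The size depends on the pseudocount, since Ptgs2 and Hpgd are near 0 in some groups: with 1 CPM the means were -1.72, 1.80 and 1.25. Taken singly against Hpgd, Ptgs1 gave -1.87 ± 0.26, 1.89 ± 0.13 and 0.57 ± 0.64 in TGFβ, Pam3 and Pam3+TGFβ. Its Pam3+TGFβ replicates were at 1.30, 0.31 and 0.09, the last inside the untreated range of -0.14 to 0.21, so that mean rests largely on replicate 1. The positive Pam3 value came with lower Hpgd (-2.30), since Ptgs1 itself fell under Pam3 (-0.21). Ptgs2 gave -3.60 ± 0.62, 4.0 ± 0.36 and 3.48 ± 1.1, and Ptges gave -2.27 ± 0.26, 3.19 ± 0.25 and 2.72 ± 0.85. As the members were chosen with results known, these balances are descriptions and carry no test.

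The lipoxygenase branch (Alox5, Alox5ap, Ltc4s and Lta4h) was set against the same Hpgd value, which both balances subtract. It was -1.12 ± 0.28 in TGFβ, 1.81 ± 0.18 in Pam3 and 1.44 ± 0.65 in Pam3+TGFβ libraries, where the replicates were at 2.18, 1.18 and 0.95. The positive value in Pam3 libraries came with lower Hpgd, since the Pam3 changes of Alox5, Alox5ap, Ltc4s and Lta4h without TGFβ were all negative (-0.23, -0.09, -0.60 and -0.22). The wide SD of the last group in both balances came with Pam3+TGFβ replicate 1, whose Hpgd level of 0.32 CPM was the lowest; without it the synthesis balance was 1.77 and the lipoxygenase balance 1.07. Within the cyclooxygenases, Ptgs2 minus Ptgs1 was -1.74 ± 0.56 in TGFβ, 2.11 ± 0.24 in Pam3 and 2.91 ± 0.43 in Pam3+TGFβ.

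**Figure D3:**
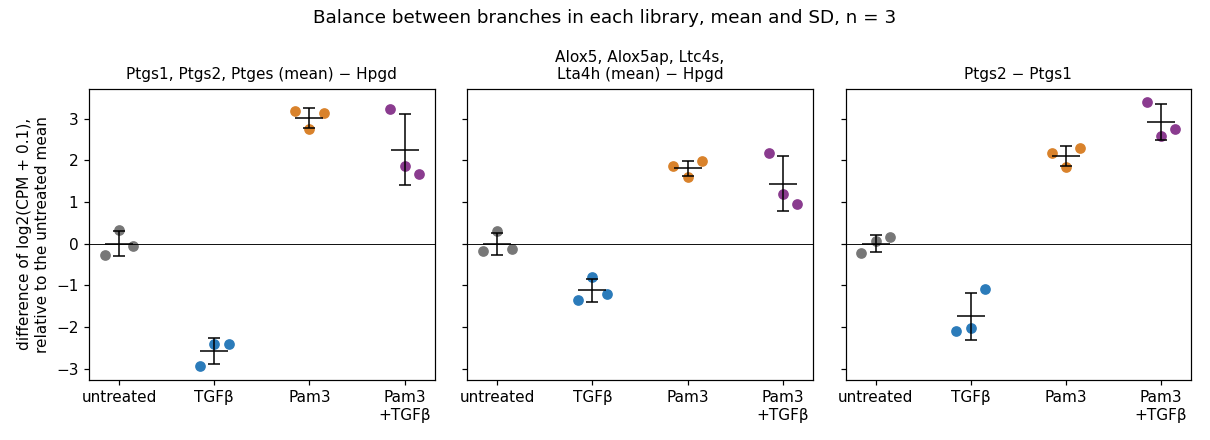
Difference of log2(CPM + 0.1) relative to the untreated mean (y axis) for synthesis minus Hpgd, lipoxygenase branch minus Hpgd, and Ptgs2 minus Ptgs1, in the 4 groups (x axis); points are libraries, bar and whiskers mean and SD, n = 3. TGFβ libraries lie below and all libraries with Pam3 above the untreated ones in each panel.

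Levels can be compared between genes only per length, here as CPM per kilobase of all exonic bases in GENCODE M39. In untreated cells Ptgs1 (110 ± 1.51) and Alox5ap (105 ± 6.57) were highest and did not differ beyond their spread. Next came Alox5 (49.9 ± 1.99) and Ltc4s (47 ± 3.91), again within their spread, then Tbxas1 (15.9 ± 0.554) and Lta4h (10.5 ± 0.32). This order depends on the length used, which joins the exons of all annotated transcripts. It was 12631 bases for Tbxas1 and 10972 for Lta4h, against 4112 for Alox5 and 1037 for Ltc4s. Before division by length, Tbxas1 (201 CPM) and Alox5 (205 CPM) were at similar levels. Which transcripts these cells use was not tested. The synthases Ptges (2.37 ± 0.371) and Hpgds (1.57 ± 0.145), the breakdown enzyme Hpgd (0.748 ± 0.105) and Ptgs2 (0.0989 ± 0.015) were far lower. In Pam3+TGFβ cells Alox5ap led with 81.7 ± 4.4, Ltc4s (51.8 ± 3.77) stood beside Ptgs1 (50.3 ± 2.39), and Ptgs2 reached 0.393 ± 0.109, so Ptgs1 remained the more abundant cyclooxygenase per length in every group.

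The wider pathway was read from 9 lists holding 88 further genes of the table, of which 62 passed the filter. Pam3 called 14 higher and 15 lower without TGFβ and 18 higher and 17 lower with it. TGFβ called 19 higher and 32 lower without Pam3 and 20 higher and 26 lower with it, and the interaction was positive for 11 and negative for 8. The share called was 46.8%, 56.5%, 82.3%, 74.2% and 30.6% in the order of contrasts used above, beside 18.3%, 38.5%, 51%, 45.3% and 15.9% of all tested genes. The lists were chosen with results known, so nothing particular to them is read from this.

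Release of arachidonic acid from membranes showed mixed changes. Of 11 tested genes, Pam3 raised 1 and lowered 4 in each setting. Of all genes it raised 9.62% and lowered 8.66% without TGFβ, and raised 20.4% and lowered 18.1% with it. The 4 were not all the same genes, as Plaat3 was called lower without TGFβ and Mgll with it. The gene raised was Pla2g4a, cytosolic phospholipase A2, the main enzyme of release in macrophages, named here after its values were seen: 77, 71.4 and 77.4 CPM in untreated, 74.9, 73.7 and 70.9 in TGFβ, 93.2, 87.3 and 81.1 in Pam3, and 99.6, 95.7 and 97.3 in Pam3+TGFβ libraries. Its Pam3 response was 0.21 (SE 0.0568, adjusted p 0.00899 in edgeR) without and 0.42 (SE 0.0568, adjusted p 1.46e-06) with TGFβ. Daglb, a diacylglycerol lipase, fell under both agents, from 75.4 ± 5.07 CPM to 30.3 ± 2.16 with TGFβ, 49 ± 4.53 with Pam3 and 13.4 ± 0.691 with both. TGFβ also lowered Dagla, the related lipase (-1.19, adjusted p 3.11e-10, and -1.05, adjusted p 4.06e-09, without and with Pam3), and the secreted phospholipase Pla2g12a (-1.17, adjusted p 2.13e-05, and -1.15, adjusted p 2.69e-05).

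Genes that put arachidonic acid back into phospholipids were called higher under Pam3 in 6 of 8 cases and lower in none without TGFβ, beside 9.62% of all genes called higher. Of these 6, Acsl3 (0.22, adjusted p 0.0343 in edgeR) lost its call in 5 of the 12 fits without a library, those without untreated replicate 2 or 3 or any Pam3 replicate (adjusted p 0.0683 to 0.129). It was also lost with no filter (0.0703), with only the 6 libraries compared (0.0907) and without the 3 libraries that stood apart (0.163). With TGFβ, 4 were higher and 2 lower, beside 20.4% and 18.1% of all genes. Lpcat2, an acyltransferase that also makes platelet-activating factor, went from 57.2 ± 7.85 CPM in untreated and 29.3 ± 5.03 in TGFβ cells to 109 ± 7.34 in Pam3 and 109 ± 2.54 in Pam3+TGFβ cells. Its interaction was 0.96 (SE 0.161, adjusted p 0.000989 in edgeR), the same sign as that of Ptges. Acsl1, which activates fatty acids to acyl-CoA, rose under Pam3 in both settings (0.66, adjusted p 1.59e-09, and 1.05, adjusted p 2.83e-14). Acsl3, of the same family, rose with TGFβ (1.28, SE 0.0699, adjusted p 3.91e-14).

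The other prostanoid synthesis genes were lower with TGFβ in 8 of 9 cases without Pam3 and 6 of 9 with it, beside 28.1% and 23.8% of all genes, and 1 was higher in each. Akr1b8, an aldo-keto reductase, fell from 11.6 ± 1.82 CPM to 0.954 ± 0.109 with TGFβ (-3.60, SE 0.165, adjusted p 1.23e-15 in edgeR). Prxl2b, prostamide/prostaglandin F synthase, fell from 4.81 ± 0.458 to 1.43 ± 0.375 CPM (-1.76, SE 0.214, adjusted p 1.52e-07). Ptgis, prostacyclin synthase, held 13, 21 and 19 counts in untreated and 1, 0 and 0 in TGFβ libraries (adjusted p 0.000437); its fitted fold is not given because of these counts.

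Of 7 genes of prostaglandin transport and later breakdown, TGFβ without Pam3 lowered 6 and raised 1, beside 28.1% of all genes called lower and 22.9% higher. Of the 6, Slco3a1 (-0.90, adjusted p 0.0235 in edgeR) lost its call without untreated replicate 2 (-0.51, adjusted p 0.241), TGFβ replicate 1 (0.125) or TGFβ replicate 2 (0.0636), with only the 6 libraries compared (0.116) and without the 3 libraries that stood apart (0.0984). Slco2a1, the transporter that takes prostaglandins into cells for breakdown by Hpgd, held 90, 90 and 72 counts in untreated libraries and 0 in all TGFβ and all Pam3+TGFβ libraries. Against a floor of 3 counts per library it was at least 26.4-fold lower with TGFβ, and at least 13.3-fold lower in Pam3-treated cells (adjusted p 2.22e-09 and 2.87e-08 in edgeR). In cells without Pam3 its direction was thus opposite to that of Hpgd, which TGFβ raised there. In Pam3-treated cells the TGFβ effect on Hpgd was not called (0.60, adjusted p 0.164 in edgeR). Slco3a1, another organic anion transporter, rose under Pam3 (2.00, SE 0.287, adjusted p 1.01e-05, and 2.12, SE 0.311, adjusted p 4.07e-06), and so did Abcc1, an exporter of LTC4 (0.49, adjusted p 1.98e-07, and 0.91, adjusted p 6.48e-13).

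Of 9 prostanoid receptor genes, 6 were tested. Ptgir, the prostacyclin receptor, fell with TGFβ from 116 ± 4.92 to 10.1 ± 0.414 CPM (-3.51, SE 0.0659, adjusted p 2.15e-23 in edgeR). Ptger4, the EP4 receptor for PGE2, was at 48.5 ± 1.87 CPM in untreated, 28.8 ± 1.44 in TGFβ, 58.3 ± 2.98 in Pam3 and 87.5 ± 3.52 in Pam3+TGFβ cells, with an interaction of 1.34 (SE 0.0867, adjusted p 1.79e-11). Ptger2, the EP2 receptor, named after its values were seen, had an interaction of the other sign (-0.67, SE 0.119, adjusted p 0.000181), with 18.6 ± 1.45, 24.3 ± 0.876, 18.3 ± 1.16 and 15 ± 0.842 CPM in the same order. Ptgfr, the PGF2α receptor, was barely counted without TGFβ (0, 2 and 2 counts untreated) and reached 29, 28 and 24 counts with it (adjusted p 7.5e-06) and 91, 73 and 119 with both agents.

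Among 10 tested genes of leukotriene processing, Pam3 raised none and lowered 6 in each setting, while TGFβ without Pam3 raised 6 and lowered 2. The 6 were not all the same genes, as Mgst2 was called lower without TGFβ and Cyp4f16 with it. Of all genes, Pam3 lowered 8.66% without and 18.1% with TGFβ, and TGFβ without Pam3 raised 22.9% and lowered 28.1%. Of the 6 lowered by Pam3 without TGFβ, Cyp4f18 lost its call in 10 of the 12 fits without a library (adjusted p 0.0519 to 0.206 in edgeR), all but those without untreated replicate 3 or Pam3 replicate 1, and with no filter (0.0672) or only the 6 libraries compared (0.121). Dpep2 lost its call without untreated replicate 1 (adjusted p 0.135), Pam3 replicate 1 (0.058) or Pam3 replicate 2 (0.146). Dpep2, a dipeptidase that converts LTD4 to LTE4, fell with TGFβ from 152 ± 4.32 to 47.7 ± 2.82 CPM (-1.68, SE 0.0542, adjusted p 9.67e-19 in edgeR), and its relative Dpep3 from 3.93 ± 0.652 to 0.453 ± 0.107 (-3.11, SE 0.308, adjusted p 4.15e-09). Dpep2 acts after Ltc4s, which TGFβ raised. Cyp4f18, which inactivates LTB4, rose from 13.6 ± 1.1 to 34.3 ± 0.505 CPM (1.34, SE 0.0815, adjusted p 3.57e-13).

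Receptors for leukotrienes and related mediators were lower with TGFβ in 5 of 7 tested genes in cells without Pam3, while Pam3 raised 3 of them without and 4 with TGFβ and lowered none. The shares of all genes were 28.1% lower with TGFβ, and 9.62% and 20.4% higher with Pam3. Those raised by Pam3 were Fpr1, Fpr2 and Cmklr1 in both settings, which are not leukotriene receptors. The leukotriene receptors Ltb4r1 (-0.26), Ltb4r2 (-0.68) and Cysltr1 (0.15) were not called without TGFβ. With TGFβ, Cysltr1 was called higher (0.42, adjusted p 0.000192 in edgeR). Fpr1, Fpr2, Ltb4r2 and Cysltr1 are named here after their values were seen. Ltb4r1, the high-affinity LTB4 receptor, fell from 11.8 ± 1.66 to 0.309 ± 0.15 CPM (-5.26, SE 0.239, adjusted p 1.3e-15 in edgeR), and Cmklr1, the chemerin and resolvin E1 receptor, from 76.3 ± 8.57 to 0.107 ± 0.0736 CPM (-9.47, SE 0.2, adjusted p 3.48e-17). The TGFβ libraries held 6, 1 and 5 counts of Cmklr1, so the size of its fold rests on few reads. It was -8.90 without the 3 libraries that stood apart. Pam3 raised Cmklr1 in cells without TGFβ to 152 ± 8.92 CPM (1.00, SE 0.0956, adjusted p 5.7e-07), a call lost in limma-trend on the authors' normalized values (1.00, adjusted p 0.155). Gpr18 was lower with TGFβ in both settings (-1.89, adjusted p 0.015, and -1.98, adjusted p 0.00466), the first of which was lost without untreated replicate 2 (adjusted p 0.0595) and without TGFβ replicate 2 (0.0656). Of the 2 tested genes in each of the other lists, Aloxe3, a lipoxygenase known from skin, fell under Pam3 in cells without TGFβ (-1.71, SE 0.542, adjusted p 0.0275; lost without any single Pam3 replicate or untreated replicate 1 or 2, with adjusted p from 0.0591 to 0.114), and Ephx1, an epoxide hydrolase, fell with TGFβ from 23.9 ± 0.233 to 3.8 ± 0.669 CPM (-2.66, SE 0.115, adjusted p 3.63e-16).

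**Figure D4:**
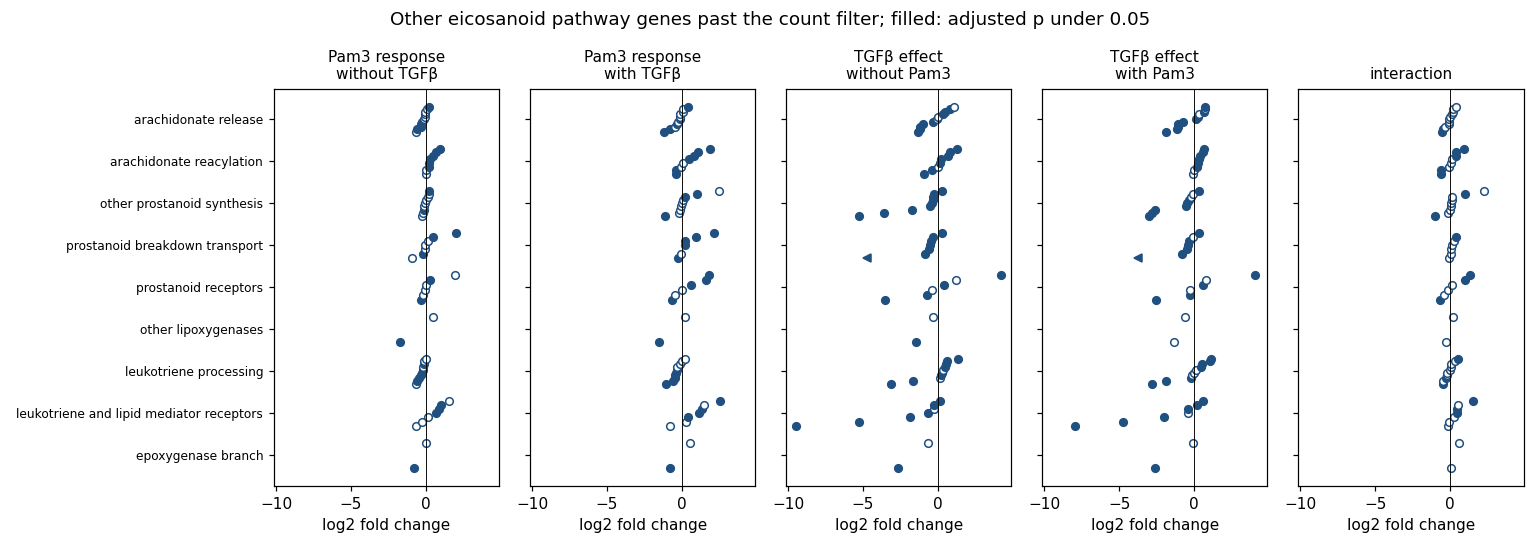
Fitted log2 fold change (x axis) of the 62 tested genes of the other eicosanoid lists (y axis, grouped by list) in the 5 contrasts; filled points have an adjusted p under 0.05, and triangles mark Slco2a1 at its bound. The furthest points to the left under TGFβ are those of Cmklr1 (-9.47 and -7.94), which rest on few counts in the TGFβ groups.

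The genes nearest to each member were taken as those with the smallest root mean square difference of centred log2 CPM over the 12 libraries, among 11884 tested genes with a mean of at least 1 CPM. For Ptges the nearest was Lpcat2 (0.154), described above, then Slc7a8 (0.168), an amino acid transporter, and Plpp1 (0.184), a lipid phosphatase. For Ptgs1 they were H2-DMa (0.070), Arhgef6 (0.086) and H2-DMb2 (0.087), where H2-DMa and H2-DMb2 encode chains of the molecule that loads peptides on MHC class II. For Ptgs2 they were Tarm1 (0.344), Phf11a (0.400) and Nlrc5 (0.417), and for Hpgd Mn1 (0.560), Plxna4 (0.697) and Ypel3 (0.707); the measure grows with how much a member varies, so it is not compared between members. For Hpgds the nearest was Cd180 (0.212), a TLR-like receptor, at 87.7 CPM in untreated and 13.6 CPM in TGFβ cells.

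Il16 (0.050) was nearest to Tbxas1, Cox4i1 (0.042) to Alox5ap, Fbxo32 (0.121) to Ltc4s and Xbp1 (0.040) to Lta4h. Fbxo32 rose from 7.05 CPM in untreated to 17.4 CPM in TGFβ cells and was at 5.17 and 8.83 CPM with Pam3 and Pam3+TGFβ, the same order of groups as Ltc4s. Likeness over these libraries is a description of levels and carries no test.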

How the data were processed

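mRNA was measured in 12 libraries of FLAMs, 3 in each of 4 groups taken from the sample titles. Per the submitters' processing notes, the authors used bcl2fastq 2.20.0, FastQC 0.11.7, Bowtie2 2.4.1, featureCounts of Subread 2.0.0, DESeq2 1.36.0 and R 4.2.1 with GRCm39; the annotation, strand setting and handling of multiply mapped reads are not given in the sources used here. Bowtie2 does not split reads over introns, so reads crossing exon junctions can be lost. The deposited counts are whole reads per gene symbol. The authors also deposited a normalized signal, in which all counts of a library are divided by the same number; it served for an alternative only.

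Genes were kept by filterByExpr (minimum count 10), which left 14749, and tested in R 4.3.3 with edgeR 4.0.16 (quasi-likelihood, robust option) on TMM-scaled counts, with 4 group means and Benjamini-Hochberg adjustment; each adjusted p is from this test unless another tool is named. The SE is the size of the log2 change divided by the square root of F. Alternatives were other scalings, DESeq2 1.42.0, limma-trend (limma 3.58.1), other filters, a replicate block, the 6 libraries compared, leaving out each library and other pseudocounts. Leaving out 3 libraries that stood apart was added after the data were seen. The procedure was tested on simulated counts. All members are described, and up to 3 genes per pathway list are named by rule, those with the largest called change whose higher group had at least 10 counts in each library. Some further pathway genes were named after their values were seen. Some marker and nearest-gene results are not reported here. The members and lists were chosen with earlier results of these data known.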

Additional observations from a re-analysis of the deposited data

Results flagged for a closer look

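The results below are those with a called interaction in edgeR, that is, an answer to Pam3 that depended on TGFβ. Among the enzymes, the interaction was 3.63 for Ptgs2, 0.85 for Ptges, -0.41 for Ptgs1, -0.44 for Alox5, -0.37 for Ltc4s and -0.21 for Tbxas1, and the values and tests of each are given above. Ptgs2 and Ptges were lower in TGFβ than in untreated cells. With both agents their ranges overlapped those of Pam3 alone, and the differences were not called. For Ptgs1 and Alox5 the group with both agents was the lowest.

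Among the other pathway genes named, the interaction was positive for Lpcat2 (0.96, adjusted p 0.000989), Acsl1 (0.39, adjusted p 0.000592), Abcc1 (0.41, adjusted p 0.000307), Ptgir (0.97, adjusted p 5.76e-09), Ptger4 (1.34, adjusted p 1.79e-11), Akr1b8 (1.01, adjusted p 0.00272) and Cmklr1 (1.52, adjusted p 0.0291). It was negative for Daglb (-0.56, adjusted p 0.000404), Acsl3 (-0.62, adjusted p 4.26e-05), Ptger2 (-0.67, adjusted p 0.000181) and Prxl2b (-1.02, adjusted p 0.0294 in edgeR). Among genes named outside the rule, it was also positive for Mgst2 (0.50, adjusted p 0.00702), Fpr1 (0.45, adjusted p 3.31e-05) and Fpr2 (0.47, adjusted p 5.97e-05). It was negative for Cyp4f16 (-0.49, adjusted p 5.12e-05 in edgeR). Akr1b8 and Cmklr1 remained far below the untreated level with both agents, at 1.92 and 0.628 CPM. The call of Prxl2b was lost without untreated replicate 1, TGFβ replicate 1, any Pam3 replicate, or Pam3+TGFβ replicate 2 or 3 (adjusted p 0.0576 to 0.0986 in edgeR), and without the 3 libraries that stood apart (0.0807). That of Cmklr1 was lost without untreated replicate 2, TGFβ replicate 2 (1.01, adjusted p 0.141) or 3, or Pam3+TGFβ replicate 1 or 2 (adjusted p 0.0526 to 0.0794 for the other 4), in limma-trend (adjusted p 0.18) and without the 3 libraries that stood apart (0.198).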

How the results depend on the processing

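The number of members called stayed within 1.5 times the reported one in each alternative run. When single libraries were left out it was 8 to 9, 8 to 10, 7 to 8, 5 to 6 and 5 to 6 in the Pam3 response without and with TGFβ, the TGFβ effect without and with Pam3, and the interaction, and under the other settings 7 to 9, 8 to 10, 7 to 8, 5 and 5 to 6. Ptgs2 could not be tested where each library had to hold at least 10 counts. The branch balances depended on the pseudocount: with 0.5 CPM synthesis minus Hpgd was -1.99 in TGFβ and 2.29 in Pam3, and lipoxygenase minus Hpgd 1.26 in Pam3; with 1 CPM these were -1.72, 1.80 and 0.90, and in Pam3+TGFβ 1.25 for synthesis and 0.72 for lipoxygenase. Larger pseudocounts shrink differences of genes near 0 by construction.

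Values that changed sign were all close to 0 and not called: without untreated replicate 3 the TGFβ effect of Alox5 without Pam3 (-0.01, range -0.01 to 0.05 over single libraries left out) and the interaction of Alox5ap (0.01, range -0.09 to 0.01), without Pam3 replicate 1 the TGFβ effect of Ptges with Pam3 (0.04, range -0.17 to 0.04, and 0.02 without the 3 libraries that stood apart), without Pam3 replicate 2 the interaction of Lta4h (0.01, range -0.07 to 0.01), and without Pam3+TGFβ replicate 2 the TGFβ effect of Ptgs2 with Pam3 (0.03, range -0.35 to 0.03). The cause was not tested. The replicate numbers were not taken as pairs: deviations of same-numbered libraries correlated at -0.17 to 0.30 (median 0.06 over 18 pairs), and 5 of 12 libraries correlated best with their own number. With the number as a replicate block, 8, 10, 8, 5 and 6 members were called. Among the members the block added the Pam3 response of Alox5ap with TGFβ (-0.12, adjusted p 0.0404 in edgeR); among the other named genes it ended those of Cyp4f18 without TGFβ (-0.25, adjusted p 0.0512) and Aloxe3 with TGFβ (-1.56, adjusted p 0.0616). That call of Aloxe3 (adjusted p 0.0494) was also lost with no filter (0.0645) and in 10 of 12 fits without a library (-2.01 to -1.13 and adjusted p 0.0268 to 0.22 over the 12). Depth limits Ptgs2 and, with Pam3, Hpgd, which rest on at most 91 and 42 counts a library.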
